A study of Mus musculus with 4 samples.

Results

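In the Mll3/4 deleted Kit+ library, 217 of 14915 barcodes carried transcripts of a B-cell receptor component and of a myeloid granule enzyme at the same time. They were chosen as barcodes with at least 5 unique molecular identifiers (UMIs, each standing for 1 captured RNA molecule) of Cd79a and at least 10 of Mpo. Every barcode also had at least 1000 UMIs, at least 500 detected genes and at most 10% mitochondrial UMIs, and no doublets were removed. These 217 co-positive barcodes are a small set among the 55216 barcodes kept in the 4 libraries of the series.

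Single bone marrow cells of the CD45.2+ fraction were profiled 10 weeks after transplantation. CD45.2 is a form of a leukocyte surface protein by which donor and host blood cells are commonly told apart. The libraries, 1 per group, were control Kit+ cells, Kit+ cells with Mll3/4 deleted, Kit+ cells labelled Mll3/4SI and control cells with low B220. The labels do not expand SI, do not say what drove the deletion or when, and do not give the number of mice, so animals could not be compared and no difference was tested.

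Cd79a encodes a signalling chain of the pre-B and B-cell receptor and is switched on as cells commit to the B lineage. Mpo encodes myeloperoxidase, the main enzyme of the azurophil granules that granulocyte and monocyte progenitors make. Normal B-lineage cells and granulocyte or monocyte progenitors each transcribe their own program strongly and not the other, and marrow cells of other lineages transcribe neither strongly. In droplet sequencing a barcode marks a droplet, and a droplet can hold 1 cell, more than 1 cell, or a cell together with free RNA.

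Cd79a (ENSMUSG00000003379) lies on chromosome 7 from 24897381 to 24902197 and Mpo (ENSMUSG00000009350) on chromosome 11 from 87793581 to 87804413, both on the plus strand of GRCm38. Because these genes chose the barcodes, their values are a description only. Cd79a ranged from 5 to 189 UMIs with a median of 31 in the co-positive barcodes, and Mpo ranged from 10 to 922 with a median of 286. For comparison, 2 reference sets were taken from the same library by the same filters. B reference barcodes had at least 5 UMIs of Cd79a and under 2 of Mpo (n = 12702), and myeloid reference barcodes had at least 10 UMIs of Mpo and under 2 of Cd79a (n = 493). The medians were 29 UMIs of Cd79a in the B reference and 317 UMIs of Mpo in the myeloid reference. At the median, the co-positive barcodes held about as much Cd79a as a B reference barcode and about as much Mpo as a myeloid reference barcode.

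The 4 libraries held 12205, 15091, 12345 and 16861 barcodes in the order control Kit+, deleted, SI and control B220lo, and 85445426 to 166327773 UMIs. After filtering, 11891, 14915, 12081 and 16329 barcodes were kept, with medians of 12199, 6832, 12349 and 3354 UMIs. The deletion itself could not be checked from these counts, since 5′ reads cluster at the front of each transcript and do not resolve its later exons. Over all kept barcodes of the control Kit+, deleted, SI and control B220lo libraries, Kmt2c, the gene of MLL3, stood at 58.5, 51.6, 62.5 and 146.7 CPM (the gene's UMIs scaled to a common total), and Kmt2d, the gene of MLL4, at 24.1, 19.95, 20.7 and 41.6 CPM. Both were thus counted in the library labelled deleted, below the control Kit+ level. The libraries differ in cell make-up, as given below, and the part of the deletion in this difference was not tested. Kmt2c stood at 44.1 CPM (exact Poisson 95% interval 39.0 to 49.7) in the co-positive barcodes, 49.3 CPM in the B reference and 39.1 CPM in the myeloid reference. Kmt2d stood at 18.3 CPM (15.1 to 22.0), 18.99 CPM and 19.8 CPM. Some barcode sequences occurred in more than 1 library, 1547 in all. Of the co-positive barcodes, 14 (6.45%) had a sequence also present in another library, against 822 (5.51%) of all kept deleted barcodes, and 0 were co-positive in both libraries.

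Co-positive barcodes were counted by the same rule in each library. They made up 1.45% (exact 95% binomial interval 1.27 to 1.66) of deleted barcodes. There were 11 (0.0925%) in the control Kit+ library, 5 (0.0414%) in the SI library and 28 (0.171%) in the control B220lo library. Intervals here and below cover counting error only. The libraries differed widely in how many barcodes passed each threshold alone. Barcodes with at least 10 UMIs of Mpo were common in 2 libraries, at 52.3% in control Kit+ and 56.4% in SI, and rare in the others, at 5.06% in deleted and 0.863% in control B220lo. Barcodes with at least 5 UMIs of Cd79a showed the reverse, at 0.378% and 0.232% in the control and SI Kit+ libraries, 89.96% in the deleted and 64.7% in the control B220lo library.

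The share of the rarer kind that was co-positive was closer between libraries than the share of all barcodes. In the deleted library 217 of 755 Mpo barcodes, 28.7% (25.5 to 32.1), also passed for Cd79a. In the control B220lo library 28 of 141 did, 19.9% (13.6 to 27.4). In the Kit+ libraries where Mpo barcodes were common, 11 of 6222 (0.177%) and 5 of 6811 (0.0734%) passed for Cd79a. There the Cd79a barcodes were the rare kind, and 24.4% (12.9 to 39.5) of 45 control and 17.9% (6.06 to 36.9) of 28 SI barcodes also passed for Mpo. Among Cd79a barcodes of the deleted and control B220lo libraries, 1.62% (1.41 to 1.85) and 0.265% passed for Mpo.

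**Figure D1:**
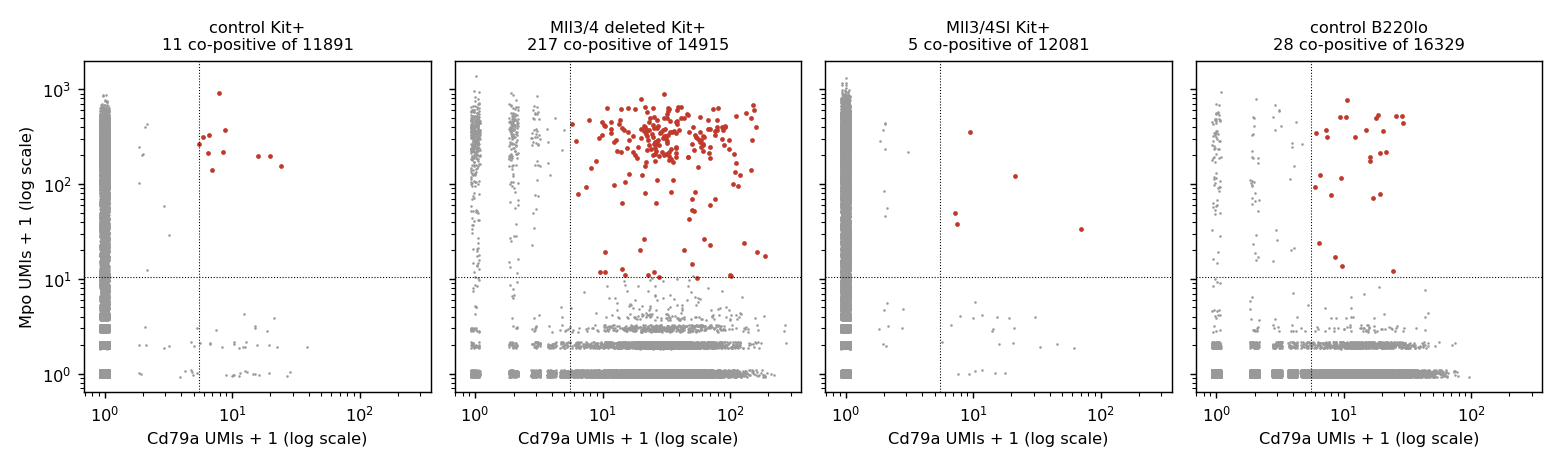
Raw UMIs plus 1 of Cd79a (horizontal) against Mpo (vertical) for each kept barcode, 1 panel per library, on log axes with a small random shift of points and dotted lines at the thresholds. Co-positive barcodes are red, with 217 in the deleted library, 11 in control Kit+, 5 in SI and 28 in control B220lo.

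The thresholds cut through a thin region. Of the 755 Mpo barcodes, 493 had 0 or 1 UMI of Cd79a, 45 had 2 to 4, 14 had 5 to 9, 33 had 10 to 19 and 170 had 20 or more. From the other side, 465 Cd79a barcodes had 2 to 4 UMIs of Mpo, 34 had 5 to 9, 14 had 10 to 19, 21 had 20 to 99 and 182 had 100 or more. Just inside the Cd79a threshold, the 4 barcodes with 5 or 6 UMIs had a median of 18789.5 UMIs and 188.5 UMIs of Mpo. Just outside it, the 7 with 3 or 4 UMIs had a median of 16668 UMIs and 277 UMIs of Mpo. Just inside the Mpo threshold, the 10 barcodes with 10 to 12 UMIs had a median of 10249 UMIs and 23 UMIs of Cd79a. Just outside it, the 14 with 7 to 9 UMIs had a median of 4684.5 UMIs and 24.5 UMIs of Cd79a.

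A low level of each gene was also counted in the reference of the other kind. Mpo was found in 15.5% of B reference barcodes (median depth 6797.5 UMIs) and Cd79a in 27.8% of myeloid reference barcodes (median depth 18446 UMIs), in each case as 1 UMI because the reference rule allowed no more. The co-positive thresholds stand above this level by rule. The part of free RNA in these single UMIs was not tested.

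Co-positive barcodes were deep. They held from 3195 to 72391 UMIs with a median of 26919, which was 3.96 times the B reference median and 1.46 times the myeloid reference median. Since both thresholds are raw counts, deep barcodes pass them more easily, and depth is not independent of the rule. The comparison made was therefore with sums. Every possible pair of 1 B and 1 myeloid reference barcode was added up, and the 6262086 pair sums had a median of 26080 UMIs. The median of the co-positive barcodes was 1.03 times this value, and the mean was 1.08 times the mean of the pair sums.

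Depth spread further upward than in the pair sums. Of the 217 barcodes, 180 (82.9%) lay between the 5th and the 95th percentile of the pair sums, from 11241 to 41426 UMIs, with 28 above and 9 below. The 95th percentile of the co-positive barcodes was 48356 UMIs. They had a median of 5831 detected genes, against 5739 in the pair sums, 4557 in the myeloid reference and 2660 in the B reference. Mitochondrial transcripts, which rise in damaged cells, made up a median of 0.796% of UMIs, against 0.828% in the pair sums. Of the 217 deepest kept barcodes in the library, 81 (37.3%) were co-positive, and 3 co-positive barcodes were deeper than any reference barcode.

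**Figure D2:**
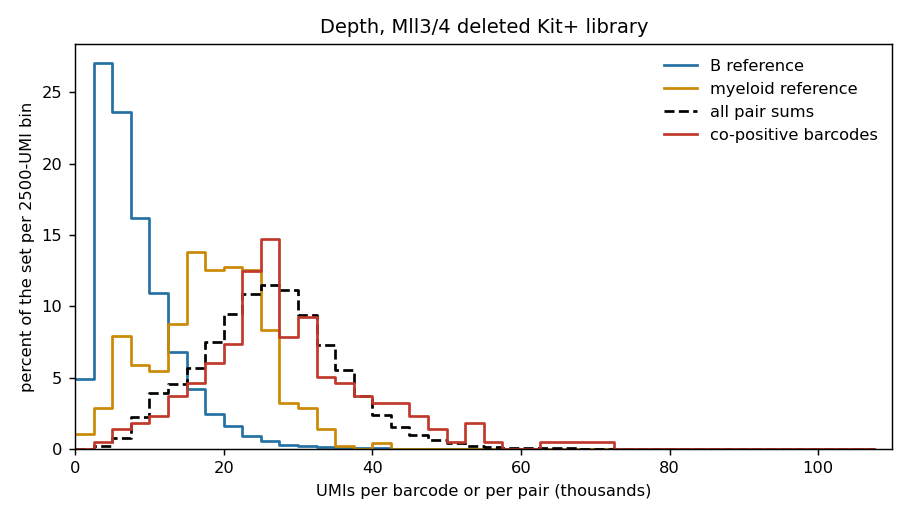
Percent of barcodes or pairs per bin of 2500 UMIs (vertical) by total UMIs (horizontal) in the B reference, the myeloid reference, the co-positive barcodes and all pair sums of the deleted library. The co-positive barcodes, with a median of 26919 UMIs, lie over the pair sums, with a median of 26080, and to the right of both references.

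In the other libraries the co-positive barcodes were few, and the ratio of their depth to pair sums varied. Their median was 20958 UMIs in the control Kit+ library, against 20025 for pair sums of that library's own references, a ratio of 1.05. It was 14563 against 21017 in the SI library (ratio 0.693, n = 5) and 18066.5 against 19873 in the control B220lo library (ratio 0.909, n = 28).

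Scrublet, which compares each barcode with simulated sums of barcodes from the same library, gave high scores to more of the co-positive barcodes than of either reference. A score of at least 0.25 was reached by 118 co-positive barcodes, 54.4% (47.5 to 61.1), by 948 (7.46%) of the B reference and by 3 (0.609%) of the myeloid reference. Scrublet's own threshold marked 0 of the 14915 barcodes and was not used, and the score of 0.25 was chosen after scores had been seen. With all barcodes of that score left out, 99 co-positive barcodes remained, and the share of Mpo barcodes with Cd79a was 15.7%. Their median depth was then 0.981 times that of the pair sums.

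Genes other than Cd79a and Mpo showed how complete each program was. B-biased genes were those with at least 10 times the mean UMIs in the B reference as in the myeloid reference and a mean of at least 0.1 (307 genes), and myeloid-biased genes were the reverse (554 genes). Both lists leave out Cd79a and Mpo and were set after the data had been seen. The co-positive barcodes held a median of 520 B-biased UMIs, with a range from 111 to 3280, against 477 in the B reference and 14 in the myeloid reference. They held a median of 1419 myeloid-biased UMIs, with a range from 26 to 5209, against 1478 in the myeloid reference and 26 in the B reference. In absolute UMIs, the B program was 1.09 times and the myeloid program 0.960 times that of a reference barcode of its own kind.

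Both programs were present within most single co-positive barcodes. All 217 exceeded the 99th percentile of the myeloid reference in B-biased UMIs. In myeloid-biased UMIs, 209 exceeded the 99th percentile of the B reference. The biased genes were chosen as low in the reference of the other kind, so these counts are a description only. Between the 5th and 95th percentile of the matching reference lay 173 barcodes (79.7%) for the B program and 182 (83.9%) for the myeloid program, and 149 (68.7%) for both. For the B program 39 barcodes lay above that range and 5 below it, and for the myeloid program 20 lay above and 15 below. By definition 5% of each reference lies beyond each end of its own range. The share of pair sums within both ranges was not computed. Across the 217 barcodes, which share 1 library, the Spearman correlation of B-biased with myeloid-biased UMIs was -0.07. Each program followed depth, with correlations of 0.59 and 0.48 to total UMIs. How the programs relate at equal depth was not tested.

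The balance of the programs varied. B-biased UMIs made up from 4.56% to 94.6% of all biased UMIs in a co-positive barcode, with a median of 30.8% and a 5th to 95th percentile range of 10.9% to 80.3%. In the pair sums the median was 25.9% and the same range ran from 11.1% to 59.0%. The balance thus reached further to the B side in some co-positive barcodes than in most pair sums. The B reference had a median of 94.9% and the myeloid reference a median of 0.908%.

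**Figure D3:**
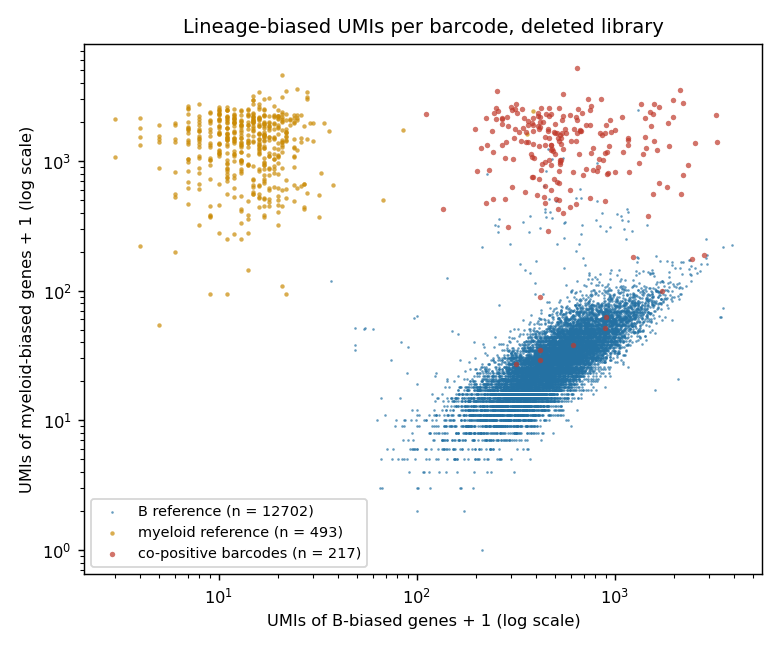
UMIs plus 1 of B-biased genes (horizontal) against myeloid-biased genes (vertical), log axes, for each barcode of the references and the co-positive set. Most co-positive barcodes occupy the corner where both are high, and they do not line up along a falling diagonal. Both sums rise with depth, and a trend at equal depth was not tested. The co-positive set has medians of 520 and 1419 UMIs. Some of its barcodes lie at the myeloid level of the B reference, down to 26 myeloid-biased UMIs.

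Rearranged immunoglobulin transcripts were assembled separately from the gene counts, and no rule used them. A heavy-chain contig is an assembled transcript of a V, a D and a J segment joined in the heavy-chain locus, where the constant gene Ighm lies on chromosome 12 from 113418558 to 113422730 on the minus strand. Of the 217 co-positive barcodes, 53 had such a contig, 24.4% (18.9 to 30.7). In the B reference 3040 had one, 23.9% (23.2 to 24.7), and in the myeloid reference 0 of 493 did, which allows a share of up to 0.609% (the limit for a count of 0 is set here and below at 3 counts of the total). The share among co-positive barcodes thus differed from that of the B reference by less than its counting error. A barcode summed from 1 B and 1 myeloid reference cell would have a contig in 23.9% of cases.

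No co-positive barcode had 2 heavy-chain contigs, which allows a share of up to 1.38%, and 1 B reference barcode had 2. Light-chain contigs, which appear after the heavy chain is made, were found in 0 of 217 co-positive and 32 (0.252%) of B reference barcodes. The heavy-chain contigs of co-positive barcodes rested on a median of 25 UMIs (6 to 104), against 22 (1 to 152) in the B reference. Co-positive barcodes with and without a contig had medians of 27238 and 26777.5 UMIs and of 32 and 30.5 UMIs of Cd79a, so depth and Cd79a were close in both. In the other libraries 7 of 11, 4 of 5 and 21 of 28 co-positive barcodes had a heavy-chain contig, and 7, 4 and 20 of them a light-chain contig, in the order control Kit+, SI and control B220lo. In these 3 libraries light-chain contigs were thus about as frequent as heavy-chain contigs, and in the deleted library 0 co-positive barcodes had one, where the B reference also had few.

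Most heavy chains of the co-positive barcodes belonged to clones that were also present in the B reference. A clone was defined by the same V segment, J segment and nucleotides of complementarity-determining region 3 (CDR3), the stretch that spans the joint and differs between independent rearrangements. The CDR3 sequences below are those of the clones among the 10 largest of the B reference that were found in at least 2 co-positive barcodes, from the deposited contigs of the deleted library, 5′ to 3′. Capitals mark a run of 20 bases that many of these clones share, and the last sequence is a clone without it. The clones of rank 3, which also lacks the run, and rank 10, which holds it, were each found in 1 co-positive barcode and are not printed.
IGHV5-2 clone, rank 1: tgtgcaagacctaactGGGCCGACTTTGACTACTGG
IGHV5-2 clone, rank 2: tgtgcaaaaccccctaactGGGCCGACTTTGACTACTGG
IGHV5-15 clone, rank 4: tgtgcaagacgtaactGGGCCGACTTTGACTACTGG
IGHV2-6-8 clone, rank 7: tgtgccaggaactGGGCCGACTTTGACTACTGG
IGHV11-2 clone, rank 8: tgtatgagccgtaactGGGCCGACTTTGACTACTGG
IGHV2-9 clone, rank 9: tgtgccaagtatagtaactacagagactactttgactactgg

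The 5 sequences with the run differ at the V side, and the shared stretch starts a few bases before the capitals. The rank 9 clone uses IGHJ2 too and does not hold the run. The run was noticed in the data and then located as the run of 20 bases that more B reference contigs held than any other. It was present in 1480 of 3041 B reference contigs, 48.7% (46.9 to 50.5), over 21 V segments and 50 clones. Among the contigs of the co-positive barcodes it was present in 23 of 53, 43.4% (29.8 to 57.7), over 6 V segments and 9 clones. Every contig with the run used IGHJ2 in both sets. The last bases of the run also end the rank 9 clone, so IGHJ2 use is not independent of the run. The run was found in 0 of 33 control Kit+, 0 of 25 SI and 0 of 9745 control B220lo heavy-chain contigs. Of the last, 3770 used IGHJ2. Counts of 0 there allow shares of up to 9.09%, 12% and 0.0308%.

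The 53 contigs of co-positive barcodes fell into 35 clones. Of these, 27 were also present in the B reference, and they accounted for 45 of the 53 contigs (84.9%). The matching share for a B reference contig against the rest of the B reference was not computed. The 10 largest B reference clones held 53.7% (51.9 to 55.5) of B reference contigs and 43.4% (29.8 to 57.7) of those of co-positive barcodes. In the co-positive set 9 clones were seen in at least 2 barcodes and 26 in 1, so no single clone so defined supplied the 53 contigs. Co-positive barcodes without a contig have no clone assigned. Contigs that share the run of bases count as separate clones where their V segments differ. The B reference contigs fell into 584 clones and used 49 V segments, and those of the co-positive barcodes used 17. IGHJ2 was used by 80.6% of B reference contigs and 77.4% (63.8 to 87.7) of those of co-positive barcodes.

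Single clones were counted with wide error. The rank 1 clone made up 405 (13.3%) of B reference contigs and 4 (7.55%) of those of co-positive barcodes. The rank 2 clone made up 331 (10.9%) and also 4. The IGHV11-2 clone of rank 8 had the most co-positive barcodes, 5 (9.43%, interval 3.13 to 20.7), against 88 (2.89%, 2.33 to 3.55) in the B reference. The interval of the co-positive barcodes lies just above the reference share, though it overlaps the reference interval. This clone was singled out from 10 clones after the values were seen. The clones of rank 5 and 6 were not found among the 53 contigs.

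**Figure D4:**
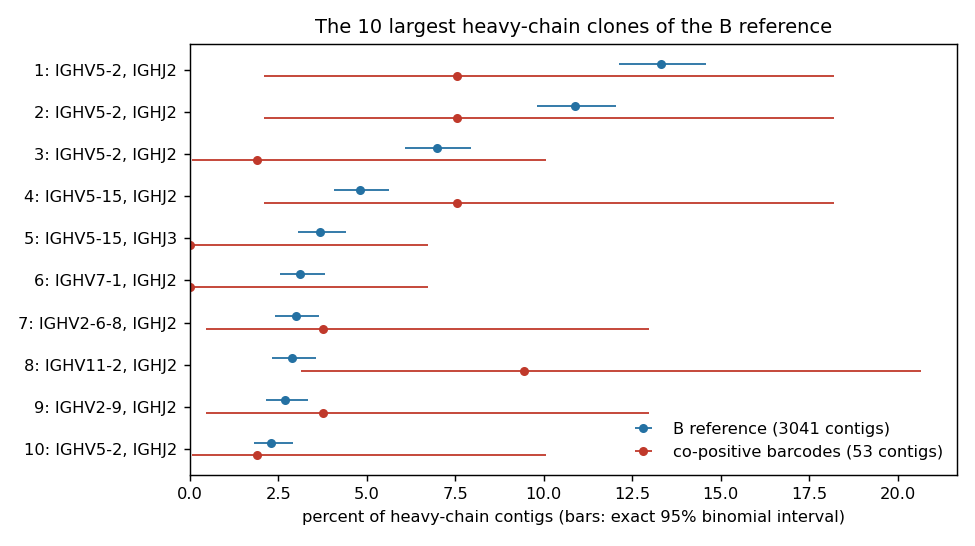
Percent of heavy-chain contigs (horizontal) in each of the 10 largest B reference clones (rows), for the B reference and the co-positive barcodes, with exact 95% binomial intervals. The rank 1 clone stands at 13.3% and 7.55%, and the intervals of the co-positive set, from 53 contigs, are wide.

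Gene levels were then compared across all genes. For each gene the mean UMIs per co-positive barcode was set against the pair profile, the mean per B reference barcode plus the mean per myeloid reference barcode, as a log2 ratio with 0.01 UMIs per barcode added. Of 7631 genes with at least 100 UMIs counted in the set or expected from the pair profile, 7561 (99.1%) lay within 1.5-fold of it. The median ratio was 0.14 on the log2 scale (1.10-fold), with a 5th to 95th percentile range of -0.08 to 0.41, and 0.02 after the pair profile was scaled to the same total. Without barcodes of a Scrublet score of at least 0.25 the median was -0.04, so the small shift above the pair profile turned direction. Of all 7631 genes, 87.1% were above the pair profile, and 58.5% after scaling, and the counts of list genes below are to be read against these shares. At least 2-fold higher were 11 genes (0.144%), and at least 2-fold lower were 2 (0.0262%). Across genes, which are not independent replicates, Pearson's r was 0.991 with the pair profile, 0.833 with the B reference and 0.853 with the myeloid reference.

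**Figure D5:**
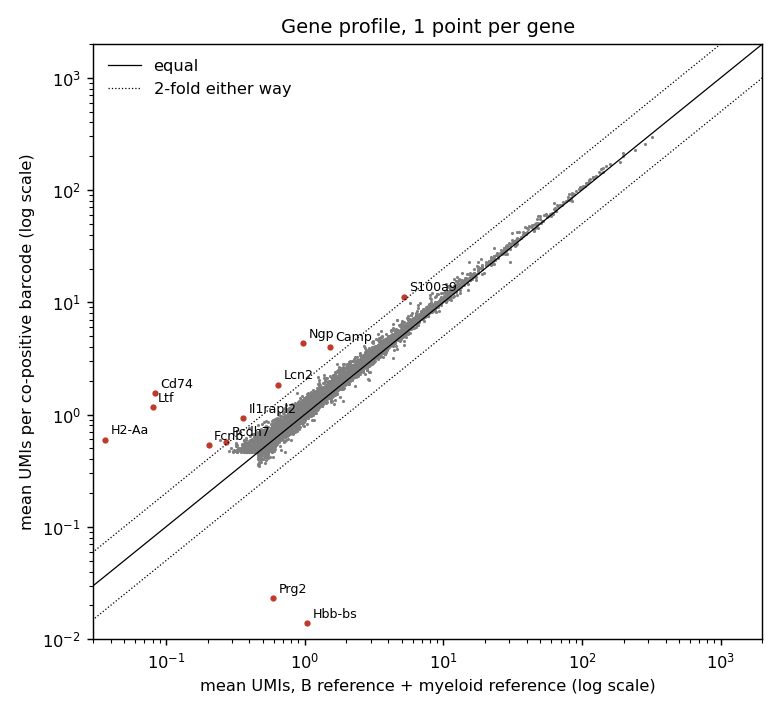
Mean UMIs per co-positive barcode (vertical) against the pair profile (horizontal) for 7631 genes, log axes, with lines at equality and at 2-fold. Of the genes, 99.1% lie within 1.5-fold of equality, and the red named points are the 10 higher and 2 lower genes past 2-fold that are not receptor segments.

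B-lineage genes were at or somewhat above the pair profile. Of the receptor and pre-B receptor list, which includes Cd79a, 10 of 11 genes were abundant enough to compare, 0 passed 2-fold either way, 9 were above the pair profile and 1 below, and the median log2 ratio was 0.31 (0.19 scaled). The count was 9 of 10 before and after scaling, against 87.1% and 58.5% of all genes. Igll1 and Vpreb1 encode the surrogate light chain, with which the heavy chain is tested before a light chain exists. Igll1 averaged 30.3 UMIs per co-positive barcode against 23.1 in the pair profile (log2 ratio 0.39), and Vpreb1 26.2 against 23.9 (0.14). Btk, a kinase of receptor signalling that was counted mainly in the myeloid reference, was the 1 gene below, at -0.02.

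Among the receptor, transcription factor and recombination lists, the B-lineage transcription factors had the highest median log2 ratio. All 7 compared of 8 were above the pair profile, 0 by 2-fold, with a median log2 ratio of 0.56 (0.45 scaled), against 87.1% of all genes above and a median of 0.14. Ebf1, which specifies the lineage, averaged 22.7 UMIs against 15.4 (log2 ratio 0.56). Pax5, which commits cells to it, averaged 4.10 against 2.69 (0.60), and Lef1 5.53 against 3.55 (0.64). Medians differed less than means, at 13 UMIs of Ebf1 in the co-positive barcodes against 11 in the B reference, and 2 of Pax5 in both. The highest co-positive barcode held 418 UMIs of Ebf1. The summed list was 1.45 times the pair profile (1.43 to 1.48), and 1.27 times without the 5 barcodes highest for it. Here and below, such barcodes were left out of the co-positive set only and not of the references, so the ratio can only fall.

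The genes of V(D)J recombination and the IL-7 receptor behaved likewise. All 4 were above the pair profile, 0 by 2-fold, with a median log2 ratio of 0.43 (0.32 scaled). Rag1, a subunit of the recombinase, had a log2 ratio of 0.46, Rag2, its partner, 0.59, and Dntt, which adds bases at the joints, 0.33. Il7r, the receptor chain for the cytokine that early B cells need, had a ratio of 0.41. Dntt was found at a median of 9 UMIs and Il7r at 3, the same as in the B reference. Of the mature B list, 3 of 7 genes could be compared and 2 were over 2-fold higher, against 0.144% of all genes. These were Cd74 and H2-Aa, found in 4 and 6 co-positive barcodes. Without the 5 barcodes highest for each, their log2 ratios were -3.23 and -1.66. Ms4a1, the gene of CD20, had 0 UMIs in the whole set.

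Myeloid genes were at or slightly below the pair profile. Of the 7 azurophil granule genes, 0 passed 2-fold, 2 were above and 5 below, with a median log2 ratio of -0.08, and after scaling all 7 were below, with a median of -0.20. Mpo, which chose the barcodes, is 1 of the 7 and 1 of the 5 below. Elane, the gene of neutrophil elastase, averaged 227 UMIs against 242 (log2 ratio -0.09). Prtn3, the gene of proteinase 3, averaged 179 against 189 (-0.08), and Ctsg, the gene of cathepsin G, 80.3 against 84.9 (-0.08). Their medians were 168, 146 and 71 UMIs in the co-positive barcodes and 213, 168 and 80 in the myeloid reference. Each also ranged widely, Elane from 0 to 1029 UMIs.

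Myeloid regulators and receptors lay close to the pair profile. Of 6 compared of 7 transcription factors, 4 were above and 2 below, with a median log2 ratio of 0.01 (-0.11 scaled, with 1 above and 5 below). Cebpa, which starts granulocyte and monocyte development, averaged 1.33 UMIs against 1.27, and Spi1, the gene of PU.1, 5.76 against 5.73. Irf8, which favours monocytes, stood at 3.09 against 3.13, and Cebpe, which acts later in granulocytes, at 1.38 against 1.16. Of 7 compared of 8 receptors, 3 were above and 4 below, with a median of -0.02 (-0.13 scaled, with 1 above and 6 below). Csf1r and Csf3r, the receptors for the macrophage and granulocyte colony-stimulating factors, had log2 ratios of 0.06 and -0.02. Of 4 compared of 7 monocyte genes, 1 was above and 3 below. None of these genes passed 2-fold.

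The program lists were also summed within each barcode. The summed B lists (receptor, transcription factor and recombination genes) had a median in co-positive barcodes 1.07 times that of the pair sums, with Cd79a among them, and also 1.07 times without it. The summed myeloid lists (granule, transcription factor and receptor genes) had a ratio of medians of 0.871, with Mpo among them, and 0.848 without it. By means the ratios were 1.29 and 0.94. Without barcodes of a Scrublet score of at least 0.25 the ratios of medians were 0.816 and 0.989, so the B ratio turned to below 1. The median was made the leading value after both had been seen.

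Progenitor genes lay close to the pair profile, and G2/M genes above it. Of 7 compared of 10 stem and progenitor genes, 4 were above the pair profile and 3 below, with a median log2 ratio of 0.12 (0.00 scaled) and 0 past 2-fold. Kit, the receptor used for the sort, averaged 7.20 UMIs against 6.62 and had a median of 6 UMIs, against 2 in the B and 3 in the myeloid reference. Cd34, a progenitor surface protein, averaged 4.13 against 4.31. Of 20 S phase genes 18 were above the pair profile and 2 below, but after scaling 9 were above and 11 below, so the direction of that list flips with the scaling. All 20 G2/M genes were above it before and after scaling, with median log2 ratios of 0.34 and 0.23 and 0 past 2-fold, against 87.1% and 58.5% of all genes. Ube2c, a ubiquitin-conjugating enzyme of mitosis, averaged 11.5 UMIs against 8.07 (log2 ratio 0.51), Ccnb2, a mitotic cyclin, 3.89 against 2.75 (0.50), and Top2a, a topoisomerase of dividing cells, 11.8 against 9.19 (0.36). Summed over the list, the co-positive barcodes held 1.23 times the G2/M UMIs of the pair profile (1.22 to 1.25), and 1.14 times without the 5 barcodes highest for it.

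The genes past 2-fold came from very few barcodes. The largest ratios were those of Cd74 (log2 ratio 4.06) and H2-Aa (3.71), which act in antigen presentation by mature B and myeloid cells. Next came Ltf (3.69), Ngp (2.13), Lcn2 (1.51) and Camp (1.39), which encode granule proteins of late neutrophils, and Fcnb (1.35), the gene of a ficolin. S100a9 (1.10), a calcium-binding protein of neutrophils, and Il1rapl2 (1.34) and Pcdh7 (1.05), genes of membrane proteins, were the others named by rule. The 5 barcodes highest for each gene held 100% of the UMIs of Cd74 and of Ltf, 99.2% of H2-Aa, 99.8% of Ngp, 99.1% of Camp, 96.8% of S100a9, 89.7% of Fcnb and 82.8% of Lcn2. For Il1rapl2 and Pcdh7 they held 51.7% and 41.1%, and without them the log2 ratios were 0.34 and 0.33. The references rested on few barcodes too: the 5 highest of the myeloid reference held 99.4% of its UMIs of Ngp, 98.7% of Camp and 98.4% of S100a9.

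A single co-positive barcode held 334 UMIs of Cd74, while the median of the set was 0. The genes past 2-fold lower were Hbb-bs, a globin gene with 3 UMIs in the set (log2 ratio -5.47), and Prg2, a gene of eosinophil granules with 5 (-4.19). Both were carried by few reference barcodes. The 5 highest held 85.9% of Hbb-bs UMIs in the B reference and 100% of Prg2 UMIs in the myeloid reference. Others among the lowest ratios were small, at -0.62 for Apoe, which encodes a lipid carrier, -0.49 for the histone gene Hist1h3f, and -0.48 for Cyth4 and Sla, genes of signalling proteins of blood cells.

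Markers of other cell types were looked for in every co-positive barcode as sums over fixed lists. At least 10 UMIs of a list was counted as present. This cut is on raw UMIs, so deeper barcodes pass it more easily than the references do. The share of pair sums that pass it was not computed. Late neutrophil transcripts were present in 13 co-positive barcodes (5.99%), against 25 (5.07%) of the myeloid and 15 (0.118%) of the B reference, and 127 had 0. The late neutrophil sum was 2.29 times the pair profile, and the 5 highest co-positive barcodes held 91.0% of its UMIs. Without those barcodes it was 0.21 times the pair profile. Mature B transcripts were present in 8 (3.69%), against 0.866% of the B reference. The mature B sum was 2.24 times the pair profile, with 54.4% of its UMIs in the 5 highest barcodes, and 1.04 times without them. Basophil and mast cell transcripts were present in 23 (10.6%), against 39 (7.91%) of the myeloid reference. Of that list's 840 UMIs in co-positive barcodes, 610 were of the gene Hdc, which averaged 2.42 UMIs in the myeloid reference. The plasmacytoid dendritic list was present in 148 (68.2%), against 21.3% of the B and 11.8% of the myeloid reference, and its sum was 1.31 times the pair profile. Most of its UMIs were of Tcf4 and Bst2, which both references also expressed, and Siglech, its defining surface gene, had 0. Erythroid transcripts were present in 5 (2.30%), against 1.17% of the B and 0.811% of the myeloid reference. Of the 359 erythroid UMIs in co-positive barcodes, 273 were of the gene Car2, which averaged 0.803 UMIs in the B reference. Megakaryocyte transcripts were present in 1 co-positive barcode. T and NK transcripts were present in 1, in which 19 UMIs of the chemokine gene Ccl5 were counted. Macrophage transcripts were present in 0, and the complement genes C1qa, C1qb and C1qc had 1 UMI each.

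Other lineages of the deleted library were examined for Cd79a in the same way, with 1 gene each. These sets were not kept apart from the Mpo barcodes, so a barcode can count in more than 1 set. All 55 UMIs of Pf4 in the co-positive set lay in 2 barcodes, so the Pf4 set below holds at least 1 co-positive barcode. Klf1, an erythroid transcription factor, reached 3 UMIs in 50 barcodes, of which 10 also had at least 5 UMIs of Cd79a (interval of the share 10.03% to 33.7%). Cpa3, a mast cell and basophil protease, reached 10 UMIs in 15, of which 3 (interval 4.33% to 48.1%) did. Pf4, a platelet chemokine, reached 10 UMIs in 11, of which 2 (18.2%, 2.28 to 51.8) did. These shares lay below the 28.7% (25.5 to 32.1) of Mpo barcodes, with intervals that overlap it. After thinning to 5000 UMIs a barcode, which left out 22 shallower Mpo, 1 Klf1 and 1 Cpa3 barcode, at least 5 UMIs of Cd79a remained in 19.8% (17.0 to 22.9) of Mpo and 12.2% (4.63 to 24.8) of Klf1 barcodes. They remained in 21.4% (4.66 to 50.8) of Cpa3 and 9.09% (0.230 to 41.3) of Pf4 barcodes, again with overlapping intervals. With so few barcodes of the other lineages, no difference could be shown either way.

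Every measure here is a count from 1 library. Under these sums, a droplet with 1 B-lineage and 1 myeloid cell would look like 1 cell that transcribes both programs at full level. These cannot be told apart here. Not every co-positive barcode held both programs at that level. Between 10 and 19 UMIs of Mpo were counted in 14, a band that the myeloid reference also reaches. Below the 5th percentile of the matching reference lay 5 for the B program and 15 for the myeloid program. By definition 5% of each reference also lies below its own 5th percentile. These counts alone thus do not set the co-positive barcodes apart from the references. The part of free RNA in the co-positive barcodes was not tested.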

How the data were processed

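The deposited matrices held raw UMI counts per gene and barcode, made with Cell Ranger 7.1.0 on mm10, per the submitters' processing notes, from 10x 5′ version 2 libraries. The authors' deposited contig tables gave reads and UMI counts per assembled immunoglobulin contig. The 32158 of 32285 gene identifiers found in GENCODE M21 (GRCm38) supplied positions. Members and lists were chosen with earlier results of these data known. The comparison with pairs used all 6262086 pairs of reference barcodes, not random draws. Genes entered the profile with at least 100 UMIs counted or expected, and 0.01 UMIs per barcode was added before log2. Named genes were 2 to 4 examples per list and the 10 largest ratios each way, without receptor segments, mitochondrial, ribosomal protein, Gm-numbered, Rik, Xist, Tsix and Y-linked genes, and some named by this rule are not reported here. Doublets were not removed, and Scrublet (scanpy 1.11.5, expected share 8%) served only as an alternative. Shares carry exact 95% binomial intervals and sums exact Poisson intervals. The profile step was tested on simulated data. Other tools were Python 3.11.15, numpy 2.4.6, scipy 1.17.1 and pandas 2.3.3. With 1 library per group there was no test, and the intervals cover counting error only.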

Additional observations from a re-analysis of the deposited data

How the results depend on the processing

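Of 58 alternatives computed for 8 results, 38 stayed close to the reported value, 19 moved and 1 changed sign. Leaving out barcodes with a Scrublet score of at least 0.25 moved 6 results. The co-positive count was then 99, the ratio of median UMIs to pair sums 0.981, the B list ratio 0.816, the myeloid list ratio 0.989 and the share of Mpo barcodes with Cd79a 15.7%. The median gene log2 ratio was then -0.038, so it changed sign. With Cd79a at least 3 and Mpo at least 5 UMIs, the UMI ratio was 0.979, the myeloid list ratio 0.734, the Mpo share 32.2% and the gene log2 ratio 0.0056. Means in place of medians, an alternative added after the data were seen, gave a UMI ratio of 1.08 and a B list ratio of 1.29. The gene log2 ratio was 0.17 with Cd79a at least 10 and Mpo at least 20 UMIs, 0.12 with the stricter barcode filter and 0.17 with none. It was 0.15 with references at 0 UMIs of the other gene, 0.024 with the pair profile scaled to equal UMIs, 0.15 with genes of at least 1 UMI and 0.13 with a pseudocount of 0.1. Without the 5 deepest co-positive barcodes, also added after the data were seen, it was 0.10. Apart from fewer barcodes, the cause was not tested. The heavy-chain contig share and the count of barcodes with 2 contigs stayed within their intervals under every alternative run on them. The stricter barcode filter, no filter and references at 0 UMIs of the other gene left the same 217 co-positive barcodes. These contig results could not move there, yet they count among the 38. With references at 0 UMIs of the other gene, the co-positive count and the share of Mpo barcodes with Cd79a could not move either. They too count among the 38. No paired analysis was possible because each group is 1 library. With 53 contigs, the intervals of single clones are wide.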
